A study of Homo sapiens with 32 samples.

Results

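The protease-activated receptors are a family of 4 human genes, F2R, F2RL1, F2RL2 and F2RL3, which encode PAR1, PAR2, PAR3 and PAR4. Their transcripts were followed in HGrC1 cells, an immortalized human granulosa cell line, during long exposure to PFOS (perfluorooctane sulfonate, a persistent fluorinated surfactant). The family was taken by gene symbol, and all 4 members were found among 47137 gene entries, of which 18583 had values. F2RL3 was chosen because its read count had been seen to be lower at 12 weeks with 0.1 and 1 µM PFOS. Those differences are therefore given as a description without a test, whereas F2R, F2RL1 and F2RL2 were selected by family membership only.

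Cells from 4 frozen vials were thawed into separate flasks, and every flask was split 4 ways. Of these cultures, 1 was the control with the vehicle alone (0.05% DMSO), and the others were given PFOS at 0.01 µM, 0.1 µM or 1 µM, renewed at each passage. RNA was taken after 6 and after 12 weeks, which gave 8 groups of n = 4 and 32 libraries. All cultures, controls included, were kept in medium with serum and a steroid, which is 100 nM estradiol per the labels and testosterone in the study's methods. The vials are separate thaws of a single cell line, so the replicate error is the spread between thaws and not between donors, and the RNA is a bulk sample, in which fewer expressing cells and less RNA per cell cannot be told apart.

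Protease-activated receptors are G protein-coupled receptors that carry their own ligand. A protease cuts the extracellular N-terminus, and the new N-terminus folds back as a tethered ligand. Thrombin, the final protease of the clotting cascade, cuts PAR1, PAR3 and PAR4, whereas PAR2 is cut by trypsin-like proteases. In the ovary, thrombin and its receptors are known from the follicle around ovulation, when plasma proteins enter the follicular fluid.

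The cleavage site is the feature that defines each receptor, and its coding sequence differs among the 4 genes, so it is shown first. Each line gives 48 coding bases, 5′ to 3′ on the strand of the gene, and the 18 capitals are the codons of the tethered ligand just after the cut (GENCODE v44 transcripts on GRCh38, exon 2 of 2 in every case).
F2R: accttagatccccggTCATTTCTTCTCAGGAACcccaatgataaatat
F2RL1: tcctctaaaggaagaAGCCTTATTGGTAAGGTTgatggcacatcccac
F2RL2: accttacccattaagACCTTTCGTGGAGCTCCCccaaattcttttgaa
F2RL3: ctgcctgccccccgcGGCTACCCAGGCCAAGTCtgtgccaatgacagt
These stretches lie at chr5:76732334-76732381 on the plus strand for F2R, chr5:76832701-76832748 on the plus strand for F2RL1, chr5:76618560-76618607 on the minus strand for F2RL2 and chr19:16889590-16889637 on the plus strand for F2RL3. The encoded proteins have 425, 397, 374 and 385 residues in the same order. The longest run shared by any pair of the transcripts was 31 bases (F2RL1 with F2RL3), and the shortest of these longest runs was 12 bases (F2RL2 with F2RL3).

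F2R, F2RL1 and F2RL2 form a cluster on chromosome 5, and F2RL3 lies alone on chromosome 19. In the coordinates of the deposited files (GRCh38), F2R spans chr5:76716126-76735770, and F2RL1 (chr5:76819030-76835315) starts 83260 bases after its end. F2RL2 spans chr5:76615482-76623403 on the minus strand and lies inside IQGAP2 (chr5:76403285-76708132, plus strand), which encodes a scaffold protein of the cytoskeleton. F2RL3 spans chr19:16888999-16892606, and CPAMD8 on the other strand begins 345 bases after it. The libraries keep strand, but whether the counting used it is not given in the sources used here, so reads of F2RL2 and IQGAP2 may not be fully told apart.

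The promoters of F2RL2 and F2RL3 are shown because F2RL2 differed most between the times and F2RL3 between the PFOS groups. Each is the 250 bases before the gene's start from RefSeq (GRCh38.p14), on the strand of the gene, and 3 of the 4 receptors had an entry, with none for F2R. Capitals mark matches to the motifs searched on both strands.
F2RL2, chr5:76623404-76623653, minus strand: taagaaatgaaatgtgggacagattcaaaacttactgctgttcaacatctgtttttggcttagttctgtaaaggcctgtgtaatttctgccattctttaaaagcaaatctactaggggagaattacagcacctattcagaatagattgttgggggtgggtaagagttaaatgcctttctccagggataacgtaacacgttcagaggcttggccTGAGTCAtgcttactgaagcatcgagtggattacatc
F2RL3, chr19:16888749-16888998, plus strand: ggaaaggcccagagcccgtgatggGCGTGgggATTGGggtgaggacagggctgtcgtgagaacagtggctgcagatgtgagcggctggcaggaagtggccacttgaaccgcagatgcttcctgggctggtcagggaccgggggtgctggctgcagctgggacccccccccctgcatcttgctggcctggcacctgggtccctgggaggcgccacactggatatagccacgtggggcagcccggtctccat
The F2RL2 window held 1 match to TGANTCA, the AP-1 motif, which 6.57% of 35116 promoters of that length hold. The F2RL3 window held 1 match to GCGTG, the core of the xenobiotic response element, and 1 to CCAAT, which are found in 32.2% and 32% of promoters. The F2RL1 window, not shown, held 1 GCGTG and 2 GGGCGG matches, the latter motif being found in 42.6% of promoters. TATAAA, present in 10.7% of promoters, was in none of the 3 windows. These matches describe the letters only.

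Libraries held 17907057 to 18553350 counts in total. Of 14 granulosa cell markers, 12 had counts at 6 weeks and 13 at 12 weeks, with summed levels of 270 to 293 CPM (the count scaled to library size) and 286 to 314 CPM, led by GJA1 and WT1. Single markers went both ways. In the control, GJA1 (77.9 against 71.8 TPM) and WT1 (42.7 against 35.5 TPM) had higher means at 12 weeks. CYP11A1 (0.363 against 1.62 TPM), STAR (1.48 against 1.92 TPM) and INHBA (3.54 against 5.08 TPM) had lower ones. The receptor for follicle-stimulating hormone, FSHR, was a blank entry without values, and aromatase (CYP19A1) had at most 1 count. Transcripts of these features of mature granulosa cells were thus barely seen or not seen here. Leukocyte markers summed to 21.8 to 30.8 CPM at 6 weeks and 16.8 to 24.1 CPM at 12 weeks, with CD3E at 0 and MS4A1 without values. Most of this sum was CD68 (group means of 16.6 to 26 TPM), and PTPRC had at most 8 counts in a library. Of 10 hepatocyte transcripts, 3 had counts in the 6-week groups of control and 0.01 µM (2.26 to 5.57 CPM in sum), against 9 or 10 in the other groups. A single library stood apart, the 12-week control of vial 3, with 57.9 CPM or 1060 counts in sum, where no other library exceeded 252 counts. That library is therefore left out as an alternative in the 12-week PFOS comparisons and in the comparison of the times within the control. It was not left out where the PFOS effect was compared between the times.

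F2R was by far the main receptor transcript of these cells. In TPM (a transcript level scaled for transcript length and library size), F2R made up 92.7% to 94.9% of the family's summed level in the 6-week libraries and 93.4% to 98.1% in the 12-week libraries. The summed level itself was 83.5 to 115 TPM at 6 weeks and 42 to 63.8 TPM at 12 weeks. F2RL2 came next at 6 weeks, with 3.49% to 5.68% of the sum, whereas at 12 weeks it held 0.711% to 2.72%. F2RL3 held 0.615% to 1.95% at 6 weeks and 0.65% to 4.6% at 12 weeks. F2RL1 never exceeded 0.577% of the sum.

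**Figure D1:**
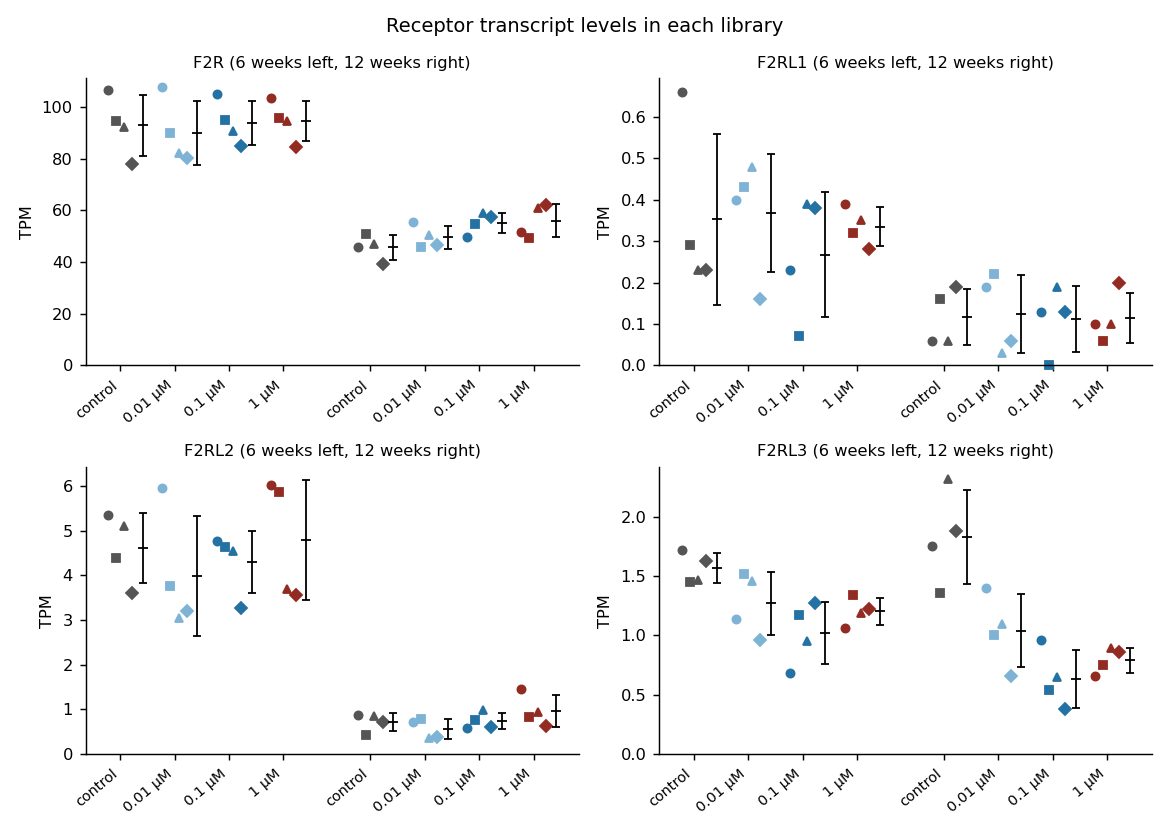
Level in TPM of each receptor transcript in each of the 32 libraries, with 6-week groups on the left and 12-week groups on the right of each panel; markers are vials 1 (circle), 2 (square), 3 (triangle) and 4 (diamond), and bars are mean ± SD (n = 4). F2R and F2RL2 are lower in every 12-week library than in any 6-week library, F2RL1 is near its detection limit, and F2RL3 is highest in the 12-week control and lowest at 0.1 µM after 12 weeks.

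F2R encodes PAR1, the principal thrombin receptor of most adherent cells. In vials 1 to 4, the 6-week control libraries had 106.7, 94.66, 92.29 and 78.02 TPM. The libraries exposed to 0.01 µM had 107.63, 89.83, 82.28 and 80.45 TPM, those exposed to 0.1 µM had 104.95, 95.03, 90.55 and 84.91 TPM, and those exposed to 1 µM had 103.32, 95.78, 94.75 and 84.7 TPM. The 4 groups overlapped fully at 6 weeks. After 12 weeks the control libraries had 45.88, 50.7, 47.17 and 39.2 TPM. At 0.01 µM the values were 55.58, 45.73, 50.56 and 46.58 TPM, at 0.1 µM they were 49.7, 54.69, 58.83 and 57.35 TPM, and at 1 µM they were 51.54, 49.43, 60.79 and 62.06 TPM. The highest 12-week library (62.1 TPM) lay below the lowest 6-week library (78 TPM), while the 12-week groups overlapped each other.

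F2RL2 encodes PAR3, a thrombin-cleaved receptor known mainly as a partner of other protease-activated receptors. Its 6-week levels in vials 1 to 4 were 5.34, 4.38, 5.1 and 3.61 TPM in the control, 5.95, 3.76, 3.05 and 3.2 TPM at 0.01 µM, 4.76, 4.63, 4.55 and 3.26 TPM at 0.1 µM, and 6.03, 5.87, 3.7 and 3.56 TPM at 1 µM. The 12-week levels were 0.87, 0.42, 0.86 and 0.72 TPM in the control, 0.73, 0.79, 0.37 and 0.39 TPM at 0.01 µM, 0.58, 0.77, 0.98 and 0.61 TPM at 0.1 µM, and 1.46, 0.84, 0.95 and 0.63 TPM at 1 µM. As for F2R, the highest library at 12 weeks (1.46 TPM) lay below the lowest at 6 weeks (3.05 TPM).

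F2RL1 encodes PAR2, the trypsin- and tryptase-sensitive member, and was close to the limit of detection. Its counts at 6 weeks were 20, 9, 7 and 7 in the control, 12, 13, 15 and 5 at 0.01 µM, 7, 2, 12 and 12 at 0.1 µM, and 12, 10, 11 and 9 at 1 µM. At 12 weeks they were 2, 5, 2 and 6 in the control, 6, 7, 1 and 2 at 0.01 µM, 4, 0, 6 and 4 at 0.1 µM, and 3, 2, 3 and 6 at 1 µM. At 12 weeks 8 of 16 libraries had at most 3 counts, the number that a count of 0 still allows, and F2RL1 did not pass the filter on low counts at that time.

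F2RL3 encodes PAR4, a low-affinity thrombin receptor best known from platelets. Its counts in vials 1 to 4 at 6 weeks were 62, 53, 53 and 58 in the control, 41, 55, 54 and 35 at 0.01 µM, 25, 42, 34 and 47 at 0.1 µM, and 39, 50, 44 and 46 at 1 µM. At 12 weeks they were 65, 51, 90 and 72 in the control, 51, 38, 43 and 26 at 0.01 µM, 36, 20, 24 and 14 at 0.1 µM, and 24, 28, 32 and 31 at 1 µM. All libraries at 0.1 and 1 µM lay below all controls at 12 weeks, as did those of 3.86% and 3.34% of all genes tested at these concentrations, whereas 1 library at 0.01 µM reached the lowest control. In TPM the 12-week group means were 1.83 ± 0.396 in the control, 1.04 ± 0.305 at 0.01 µM, 0.632 ± 0.245 at 0.1 µM and 0.79 ± 0.106 at 1 µM (SD, n = 4), so the lowest mean was at the middle concentration, and the 0.1 and 1 µM groups overlapped.

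The group means of F2RL3 came in another order than those of its relatives. For F2RL3 this order holds the 12-week differences that chose the gene, so it is a description only. F2R ran from 94.6 TPM at 1 µM after 6 weeks to 45.7 TPM in the 12-week control, with the 4 groups of 6 weeks above the 4 groups of 12 weeks, and F2RL2 (4.79 to 0.57 TPM) and F2RL1 (0.367 to 0.113 TPM) had the same split. F2RL3 instead was highest in the 12-week control (1.83 TPM), followed by the 6-week control (1.57 TPM), with 0.1 µM at 12 weeks (0.632 TPM) at the bottom and every neighbouring pair of groups overlapping. For the relatives, 21 pairs of groups, neighbours in the observed order of the means, were compared by an exact two-sided permutation test of the mean log2(TPM + 1). The step between 0.01 µM at 6 weeks and 1 µM at 12 weeks was the only one without overlap for F2R (90 against 56 TPM) and F2RL2 (3.99 against 0.97 TPM), with an exact p = 0.0286, the smallest that 4 against 4 libraries can give, and an adjusted p = 0.3. After adjustment 0 of the 21 pairs passed, but with that smallest p an adjusted p could reach the threshold only if most of the pairs had it, so the adjusted values say little about these levels.

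The effect of PFOS at 6 weeks was tested within that time, in CPM after TMM scaling, with the quasi-likelihood test of edgeR and Benjamini-Hochberg adjustment over all 12836 genes tested. A gene was called at an adjusted p of at most 0.05. No receptor was called at any concentration, beside 0% of all genes at 0.01 µM, 4.24% at 0.1 µM and 0.28% at 1 µM. At 0.01 µM, 1232 genes had an unadjusted p under 0.05, and DESeq2 and limma called 0 genes as well. Of the 12 receptor tests at this time, 1 had an unadjusted p under 0.05 in edgeR, that of F2RL3 at 0.1 µM. DESeq2, which gave an adjusted p for 5 of the 12, and limma, which gave all 12, called 0.

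F2RL3 had the largest log2 fold change of the 4 receptors at each concentration at 6 weeks, none of them past the threshold. Its log2 fold change was -0.29 (SE 0.17, adjusted p = 0.602) at 0.01 µM, -0.60 (SE 0.18, adjusted p = 0.0569) at 0.1 µM and -0.32 (SE 0.17, adjusted p = 0.42) at 1 µM. At 0.1 µM this was a mean of 2.05 CPM against 3.1 CPM in the control, 1.51-fold lower, and lower in 4 of 4 vials. All 4 libraries at 0.1 µM lay below all 4 controls, which was also the case for 6.32% of all genes tested. With the vial as replicate block the adjusted p was 0.0425, so the vial block ended on the other side of the threshold, and over all alternatives the adjusted p ran from 0.0425 to 0.292. At 1 µM F2RL3 was also lower in 4 of 4 vials, with all libraries below all controls as for 3.61% of genes, and at 0.01 µM it was lower in 2 of 4 vials. The summed hepatocyte transcripts differed between the same groups, with 2.26 to 4.68 CPM in the control, 11 to 14.1 CPM at 0.1 µM and 9.24 to 11.2 CPM at 1 µM, and their part in the result was not tested.

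The relatives had means close to the control at 6 weeks, and the sparse F2RL1 had wide errors. The log2 fold change of F2R was -0.04, 0.03 and 0.08 at 0.01, 0.1 and 1 µM, each with an SE of 0.10 to 0.11 (adjusted p = 0.948, 0.892 and 0.788). This fit had no term for the vial, so the SE includes the spread between vials. With the vial as replicate block F2R had -0.04, 0.04 and 0.09 (adjusted p = 0.777, 0.585 and 0.279 by edgeR). F2RL2 had log2 fold changes of -0.20, -0.08 and 0.10 with SEs of 0.23 to 0.24 (adjusted p = 0.833, 0.879 and 0.895). F2RL1 had 0.06, -0.36 and -0.02 with SEs of 0.39 to 0.42 (adjusted p = 0.98, 0.671 and 0.989), an error that leaves changes of some size undetectable at this depth. With a vial left out in turn these values ran from -0.26 to 0.51, from -0.75 to 0.19 and from -0.19 to 0.39, so F2RL1 had no stable direction at any concentration. For F2RL2 they ran from -0.38 to -0.05, from -0.14 to -0.05 and from -0.03 to 0.27.

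After 12 weeks F2RL3 had a lower mean than the control at each concentration. The log2 fold change of F2RL3 was -0.81 (SE 0.22) at 0.01 µM, -1.56 (SE 0.24) at 0.1 µM and -1.28 (SE 0.23) at 1 µM, that is 1.75-fold, 2.95-fold and 2.42-fold lower means, and its libraries were lower than the control of the same vial in 4 of 4 vials at each concentration. These values chose the gene and carry no test. The control of vial 3, the library with the hepatocyte transcripts, also had the highest F2RL3 count (90), and without it the log2 fold changes were -0.66, -1.41 and -1.13. At 0.1 and 1 µM no library overlapped the control range. Leaving out that library could not change this, because it was the highest control. The megakaryocyte and platelet markers summed to 28.3 to 40.8 CPM in the 12-week control, 23.7 to 30.5 CPM at 0.01 µM, 22.2 to 31.9 CPM at 0.1 µM and 29.7 to 34.9 CPM at 1 µM, and their part was not tested.

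F2R had a higher mean than the control at 12 weeks but passed at no concentration. Its log2 fold change was 0.13 (SE 0.08, adjusted p = 0.673) at 0.01 µM, 0.24 (SE 0.08, adjusted p = 0.164) at 0.1 µM and 0.23 (SE 0.08, adjusted p = 0.373) at 1 µM, and its level was above that of the control of the same vial in 3, 4 and 3 of 4 vials. Without vial 4 these values were 0.08, 0.16 and 0.11, and without vial 2 they were 0.22, 0.28 and 0.33. F2RL2 had -0.35 (SE 0.31, adjusted p = 0.771), 0.01 (SE 0.29, adjusted p = 0.989) and 0.38 (SE 0.28, adjusted p = 0.715), which ran from -0.74 to -0.07, from -0.20 to 0.21 and from 0.22 to 0.53 with a vial left out in turn. Neither of these relatives was called, beside 0% of 12742 genes at 0.01 µM, 1.07% at 0.1 µM and 0.22% at 1 µM. At 0.01 µM, edgeR gave 1080 genes with an unadjusted p under 0.05, and DESeq2 called 3 genes and limma 0. DESeq2, with an adjusted p for 5 of these 6 tests, and limma, with all 6, called 0. The unadjusted p of F2R was 0.00717 at 0.1 µM and 0.00942 at 1 µM.

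**Figure D2:**
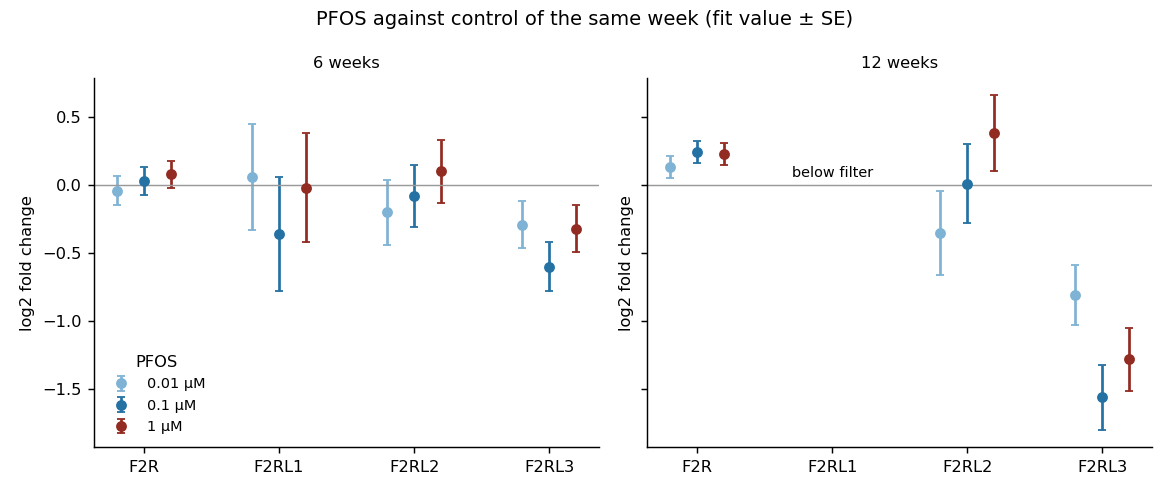
Log2 fold change of each receptor in PFOS against the control of the same week, from the edgeR fit, with bars of ± 1 SE; F2RL1 has no point at 12 weeks because it was below the filter on low counts. F2RL3 lies below 0 in all 6 comparisons and reaches -1.56 at 0.1 µM after 12 weeks, while F2R and F2RL2 stay between -0.35 and 0.38.

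Whether the PFOS effect itself differed between the times was asked with an interaction term over all 32 libraries and 12988 genes. The effect on F2R differed by 0.17, 0.20 and 0.15 on the log2 scale at 0.01, 0.1 and 1 µM (12 minus 6 weeks, SE 0.14 each, adjusted p = 0.808, 0.521 and 0.711). For F2RL2 the difference was -0.14, 0.10 and 0.28 with SEs of 0.40 to 0.43 (adjusted p = 0.962, 0.94 and 0.827). Neither passed, beside 0%, 0.208% and 0.123% of all genes at the 3 concentrations. At 0.01 µM, 972 genes had an unadjusted p under 0.05 in edgeR, DESeq2 called 1 gene and limma 0. For F2RL3, which was chosen on the 12-week values, the same term was -0.52 (SE 0.29), -0.96 (SE 0.31) and -0.95 (SE 0.29), given without a test. The 12-week control of vial 3 was not left out for this term in any gene.

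Time in culture was the larger difference for the relatives. F2R fell from 6 to 12 weeks in every group, with log2 fold changes of -0.95 in the control, -0.78 at 0.01 µM, -0.75 at 0.1 µM and -0.80 at 1 µM, each with an SE of 0.10 (adjusted p = 2.55e-08, 4.15e-07, 7.85e-07 and 4.85e-07 by edgeR). In the control this was a mean of 107 CPM against 208 CPM, 1.93-fold lower. F2RL2 fell in every group too, with log2 fold changes of -2.62 (SE 0.27), -2.76 (SE 0.29), -2.52 (SE 0.27) and -2.34 (SE 0.25) in the same order (adjusted p = 1.78e-08, 1.6e-08, 2.93e-08 and 6.45e-08 by edgeR), which in the control was 1.51 against 9.32 CPM, 6.15-fold lower. Both fell in 4 of 4 vials of every group. At 12 weeks against 6 weeks, 19.3% of all genes were called lower in the control, 21.3% at 0.01 µM, 20.6% at 0.1 µM and 15.9% at 1 µM, so a call for lower expression with time was common, but only 5.2% of genes had every 12-week library below every 6-week library, as F2R and F2RL2 did.

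F2RL1 had 12-week means of 0.192 to 0.221 CPM against 0.459 to 0.618 CPM at 6 weeks, and log2 fold changes of -1.49 (SE 0.52), -1.45 (SE 0.51), -1.22 (SE 0.56) and -1.57 (SE 0.53) in the control and at 0.01, 0.1 and 1 µM. It passed the filter over the 32 libraries only through its 6-week values, so no edgeR test is given. The neighbouring groups in its order of means included a single pair across the times, 0.1 µM at 6 weeks and 0.01 µM at 12 weeks, which overlapped (exact permutation p = 0.114). The course of F2RL3 differed in direction among the groups. Its log2 fold change with time was 0.30 (SE 0.19) in the control and -0.22 (SE 0.21) at 0.01 µM, where the adjusted p was 0.434 by edgeR, and -0.66 (SE 0.24) and -0.65 (SE 0.22) at 0.1 and 1 µM, close to the values of F2R in those groups. From 6 to 12 weeks it was lower in 1, 3, 3 and 4 of 4 vials in the same order, and at 1 µM the times did not overlap, as for 16.1% of all genes with the 12-week libraries below. The difference between the genes was not tested. Without the 12-week control library of vial 3, the value in the control was 0.15.

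**Figure D3:**
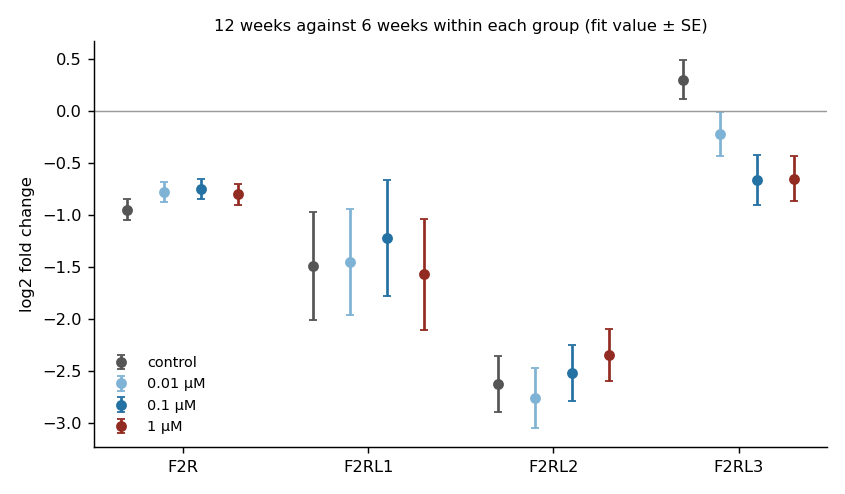
Log2 fold change of each receptor from 6 to 12 weeks within the control and each PFOS group, from the edgeR fit over 32 libraries, with bars of ± 1 SE. F2R lies between -0.95 and -0.75 and F2RL2 between -2.76 and -2.34 in all 4 groups, while F2RL3 runs from 0.30 in the control to -0.66 at 0.1 µM.

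The 2 times were separate harvests, so exposure time, passage number and anything else that differed between the harvests cannot be told apart. The summed markers of other cells in which thrombin receptors are known had lower group medians at 12 weeks, but not every marker was lower. All 6 endothelial markers had counts, and their sum was 12.6 to 17.6 CPM at 6 weeks and 5.69 to 10.6 CPM at 12 weeks, most of it KDR and TEK. The endothelial genes VWF, CDH5 and CLDN5 stayed at a group mean of at most 0.188 TPM and PECAM1 at most 0.235 TPM. CDH5 was lower at 12 weeks in the control and at 0.01 µM but not at 0.1 and 1 µM. Of 7 megakaryocyte and platelet markers, 5 had counts, with a sum of 37.4 to 54.6 CPM at 6 weeks and 22.2 to 40.8 CPM at 12 weeks, most of it ITGB3, and PPBP and GP9 had no values. ITGA2B instead had a higher mean at 12 weeks in the control (2.95 against 2.37 TPM), at 0.1 µM (3.34 against 2.75 TPM) and at 1 µM (3.33 against 2.34 TPM). At 0.01 µM its mean was lower (2.69 against 2.79 TPM), and GP6, with group means of at most 0.467 TPM, went the same ways. IQGAP2, which encloses F2RL2, also fell with time, with log2 fold changes of -1.45 (SE 0.20), -1.13 (SE 0.21), -1.16 (SE 0.20) and -1.10 (SE 0.20) in the 4 groups. Its group means were 0.713 to 0.915 TPM at 6 weeks and 0.215 to 0.285 TPM at 12 weeks. The part of each of these in the change of the receptors was not tested.

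F2R also followed the vial of origin at 6 weeks, a pattern picked after the values were seen. Vial 1 had the highest and vial 4 the lowest F2R level (CPM) in 4 of 4 groups at 6 weeks. The same vial was highest and the same vial lowest in all 4 groups for 0.462% of all genes at 6 weeks and for 0.0924% at 12 weeks. F2RL2 was highest in vial 1 in 4 of 4 groups and lowest in vial 4 in 3 of 4. At 12 weeks each vial was highest for F2R in 1 group, so the order was not kept, and F2RL3 had no such order at either time, with vial 1 highest in 1 group and lowest in 2 groups at 6 weeks.

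**Figure D4:**
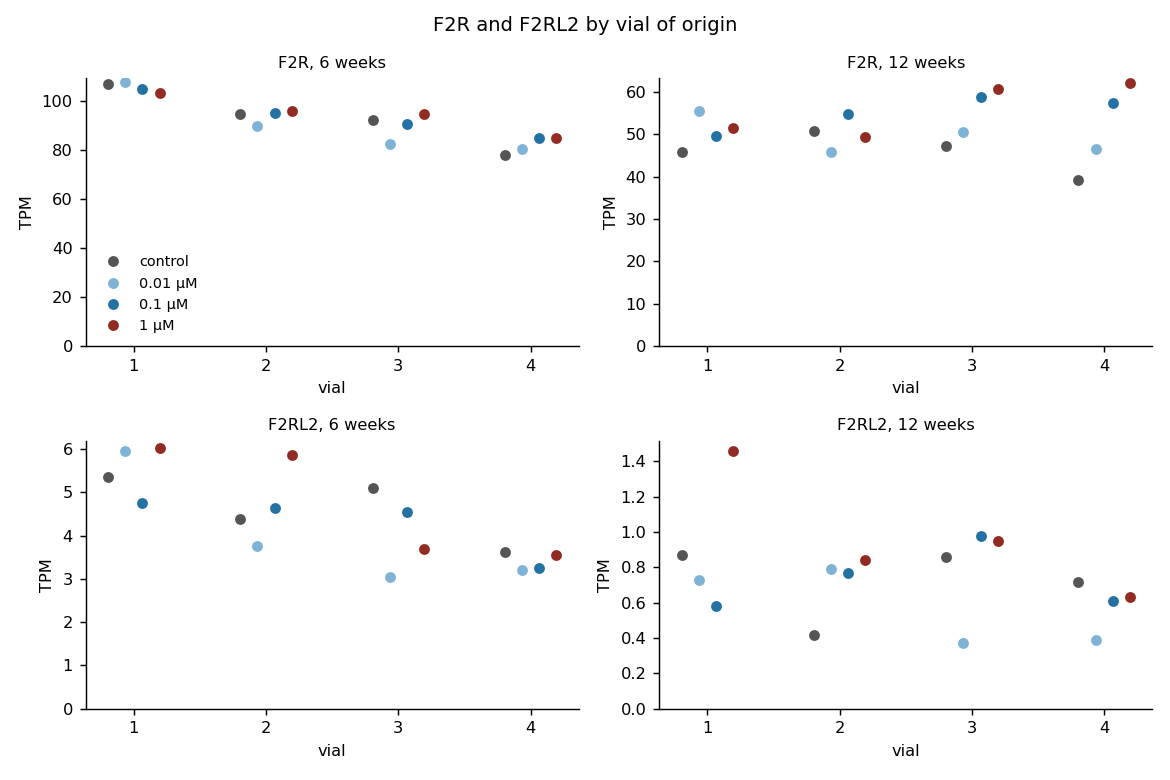
Level in TPM of F2R and F2RL2 by vial of origin at 6 and 12 weeks, with a point for each library, coloured by group and set side by side within a vial. At 6 weeks vial 1 is highest for both genes in all 4 groups, and at 12 weeks no vial is highest throughout.

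The genes around the receptors in the pathway were described from 8 lists with 129 genes in all, of which 124 had values and 91 were tested at 6 weeks, 88 at 12 weeks and 93 over both times. At 6 weeks 0 of 91 were called at 0.01 µM, 3 at 0.1 µM (3.3%) and 1 at 1 µM (1.1%), where 0%, 4.24% and 0.28% of all genes were called. At 12 weeks 0 of 88 were called at 0.01 µM, 3 at 0.1 µM (3.41%) and 0 at 1 µM, where 0%, 1.07% and 0.22% of all genes were. The share of the lists at 0.1 µM after 6 weeks was thus close to that of all genes. By an unadjusted p under 0.05 in edgeR there were 15 of 91 at 0.01 µM after 6 weeks, beside 1232 of all 12836 genes. After 12 weeks there were 12 of 88 at 0.01 µM (1080 of all 12742 genes) and 10 of 88 at 1 µM (1115 of 12742). DESeq2 and limma called 0 listed genes in these 3 comparisons. After 6 weeks there were also 23 at 0.1 µM (2665 of 12836) and 18 at 1 µM (1757 of 12836). After 12 weeks there were 17 at 0.1 µM (1956 of 12742). The median log2 fold change over the listed genes lay between -0.06 and 0.01 in the 6 comparisons, beside a median of 0.00 over all genes. Single lists ran wider, from -0.39 to 0.23, and the thrombin-inducible transcripts had medians of 0.08, 0.04 and 0.12 at 6 weeks and -0.31, -0.39 and -0.22 at 12 weeks at 0.01, 0.1 and 1 µM.

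Most of the listed proteases that cut the receptors were below the filter on low counts. Of 25 such genes, 22 had values but only 3 passed the filter, and 0 were called at any concentration and either time. PRSS3, a trypsinogen, had group means of 2.92 to 4.49 TPM, and CTSS, the lysosomal cysteine protease cathepsin S, 1.65 to 2.54 TPM. The gene of thrombin itself, F2, had 0 to 14 counts per library, with the 14 in the 12-week control of vial 3, and was below the filter. Among the cofactors and partner receptors, 0 were called with PFOS. CAV1, the caveolae scaffold, had 110 to 138 TPM, and F3, the tissue factor that starts clotting, 32.9 to 84.2 TPM.

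Among the protease inhibitors, 0 of 7 tested were called with PFOS. SPINT2, a membrane-bound inhibitor of serine proteases, had group means of 175 to 203 TPM, and SERPINE2, which inhibits thrombin, 16.7 to 74.6 TPM. The G protein alpha subunits, effectors, desensitization and trafficking genes, and other receptors of vasoactive mediators had 0 called genes in the 6 comparisons. The most abundant of them were GNAI2, an inhibitory G protein subunit (325 to 366 TPM), GNA11 of the Gq class (46.5 to 53.2 TPM), RHOA, the small GTPase downstream of the thrombin receptor (640 to 700 TPM), and ARHGEF1, a RhoA exchange factor (35.1 to 39.2 TPM). TMED2, a cargo receptor of the early secretory pathway, had 124 to 132 TPM, RAB11B, a GTPase of recycling endosomes, 103 to 117 TPM, BDKRB1, the bradykinin B1 receptor, 135 to 192 TPM, and LPAR2, a lysophosphatidic acid receptor, 13.7 to 18.1 TPM.

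The listed genes that were called with PFOS were all in the list of thrombin-inducible transcripts. That list was made with earlier results of these data known, and thrombin receptor signaling itself was not measured. Of 20 tested at 6 weeks, 3 rose (15%) and 0 fell at 0.1 µM, where 1.55% of all genes rose and 2.69% fell. EGR1, an immediate early transcription factor, was 183 TPM against 117 TPM (log2 fold change 0.68, SE 0.17, adjusted p = 0.0432 by edgeR). DUSP1, a MAP kinase phosphatase, was 1000 against 849 TPM (0.26, SE 0.06, adjusted p = 0.0336 by edgeR). CCN2, the connective tissue growth factor, was 454 against 384 TPM (0.26, SE 0.05, adjusted p = 0.0118 by edgeR), and it was the only listed gene called at 1 µM, at 471 TPM (0.35, SE 0.05, adjusted p = 0.00173 by edgeR). At 12 weeks 3 of 19 fell (15.8%) at 0.1 µM and 0 rose, where 0.542% of all genes fell and 0.526% rose. IL11, an inflammatory cytokine, was 1.73 against 3.68 TPM (-1.13, SE 0.22, adjusted p = 0.017 by edgeR), the chemokine CXCL8 was 5.53 against 11.4 TPM (-1.08, SE 0.24, adjusted p = 0.0412 by edgeR), and DUSP1 was 910 against 1212 TPM (-0.45, SE 0.09, adjusted p = 0.0179 by edgeR). DUSP1 thus rose at 6 weeks and fell at 12 weeks at 0.1 µM, and the difference between the times was -0.71 (SE 0.12, adjusted p = 0.00304 by edgeR). None of these calls was kept with every vial left out in turn. Such fits have fewer libraries per group, so a lost call need not mean a smaller difference. At 0.1 µM, leaving out vial 3 or vial 4 left 0 listed genes called at either time, and without the 12-week control library of vial 3 alone 0 were called after 12 weeks. With the vial as replicate block the adjusted p of CXCL8 at 12 weeks was 0.0962. CCN2 at 1 µM was not called without vial 1 or without vial 4, with an adjusted p of up to 0.129, and the DUSP1 difference between the times was not called without vial 3 or without vial 4, with an adjusted p of up to 0.336 (edgeR).

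**Figure D5:**
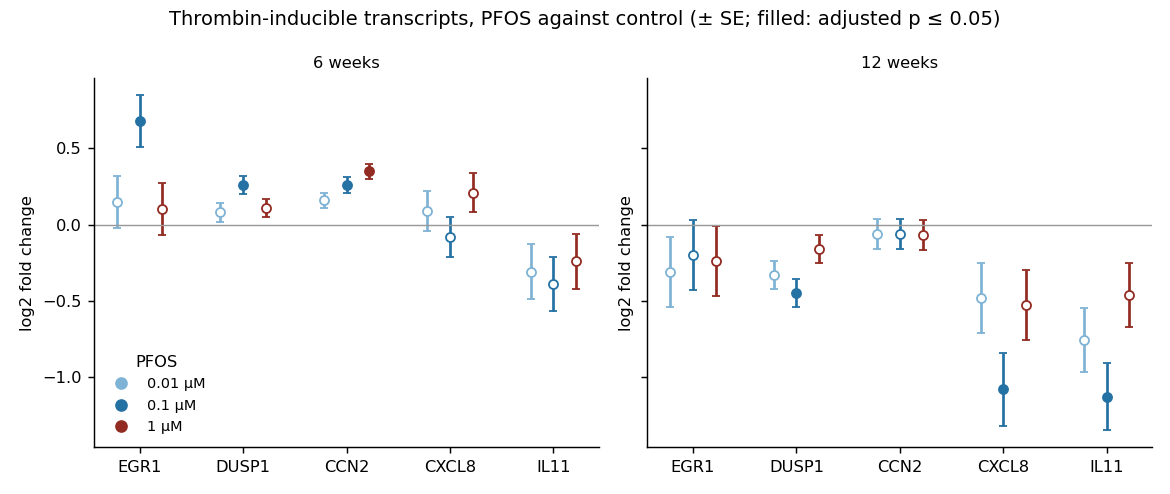
Log2 fold change of the 5 listed thrombin-inducible transcripts called in any PFOS comparison, against the control of the same week, with bars of ± 1 SE; filled points have an adjusted p of at most 0.05. EGR1, DUSP1 and CCN2 lie above 0 at 0.1 µM after 6 weeks, and DUSP1, CXCL8 and IL11 below 0 after 12 weeks.

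Over time, 36, 43, 39 and 36 of the 93 listed genes were called in the control and at 0.01, 0.1 and 1 µM. The tested genes include CXCL1, LPAR4 and LPAR6, which passed the filter on low counts at 6 weeks but not at 12 weeks. They entered through their 6-week values, as F2RL1 did, so their calls for lower expression carry little weight. None of them was called in all 4 groups. The shares of 38.7%, 46.2%, 41.9% and 38.7% of the listed genes stood beside 36.6%, 42.7%, 40.3% and 30.1% of all genes, so the lists were near the background in the first 3 groups. In all 4 groups 15 fell (16.1%) and 3 rose (3.23%), where of all 12988 genes 9.87% fell and 6.68% rose in all 4 groups. Examples picked after their values were seen were F3, with a log2 fold change of -0.87 (SE 0.12) in the control, the thrombin cofactor THBD (-0.95, SE 0.21) and the thrombin inhibitor SERPINE2 (-1.64, SE 0.13). The 3 that rose were CAV1 (0.37, SE 0.05, in the control), the G protein subunit GNAI2 (0.20, SE 0.04) and ARRB2, a beta-arrestin.

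The genes most like each receptor were taken by Pearson's r of log2 CPM over the 16 libraries of 12 weeks, 10 genes for each receptor. These libraries share their groups and vials, so r is a description. For F2RL3 they also hold the difference that chose it, which favors genes that differed between the same groups. At 0.1 µM after 12 weeks all of its 10 genes except DDIT4 were themselves called lower by edgeR, beside 0.542% of all genes. For F2RL3 the 10 genes were DDIT4, NFIL3 and RHOB (r = 0.92 each), PPP1R15A, ATF3 and CSRNP1 (0.91 each), TIPARP and KLF9 (0.90 each), and MAFF and ERRFI1 (0.88 each). Over the 16 libraries of 6 weeks the same genes had r between -0.00 and 0.66. The genes were picked for a high r at 12 weeks, so a lower r at 6 weeks, found for all 10 genes of each of the 4 receptors, says nothing about the receptors. For F2R the closest were KREMEN2 (0.90), SARS2 (0.85) and DHX38 (0.83), with the 10 genes between 0.81 and 0.90 at 12 weeks and between -0.53 and 0.70 at 6 weeks. For F2RL2 they were NBPF8 and DGKH (0.88 each) and EVC (0.87), with the 10 between 0.82 and 0.88 at 12 weeks and between -0.45 and 0.69 at 6 weeks. F2RL1, with its few counts, reached r of 0.65 to 0.72. No receptor was among the 10 closest genes of another.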

How the data were processed

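RNA was measured in 32 libraries of HGrC1 cells, grouped by the sample labels into 8 groups of 4. Stranded poly(A) libraries were sequenced on a DNBSEQ platform. The submitters' processing notes name HISAT2 2.0.4, Bowtie2 2.2.5, RSEM 1.2.8 and GRCh38.p14. The authors deposited expected counts per gene from RSEM, which were not normalized, and TPM values, which are scaled for length and depth. Their FPKM and normalized tables were not used here. Of 47137 entries, 18583 had values, the other 28554 were blank, and 0 columns were left unmapped. The counts of the receptors were whole numbers as deposited, and other expected counts were rounded before testing.

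Tests used edgeR 4.0.16 (R 4.3.3, limma 3.58.1): robust quasi-likelihood fit, TMM, filterByExpr, two-sided tests and Benjamini-Hochberg adjustment over all genes tested. PFOS was compared with control in the 16 libraries of each time, and times and interactions in all 32. The fit was tested on simulated data with known changes. CPM is after TMM, and r used a prior count of 2. Alternatives were DESeq2 1.42.0, limma on log2(TPM + 0.1), RLE scaling, no filter or at least 10 counts in every library, fewer or more libraries in the fit, the vial as replicate block and each vial left out. Levels and exact tests were computed with scipy 1.17.1, pandas 2.3.3 and numpy 2.4.6 in Python 3.11.15. Depth limits are counting errors only: a count of 0 allows 3.

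The labels state that each vial's flask was divided into the 4 groups, so replicate numbers pair the libraries. The mean correlation of same-numbered deviations from the group means lay between 0.04964 and 0.08337 over pairs of groups at 6 weeks and between -0.09289 (control with 1 µM) and 0.1525 at 12 weeks. Single values at 6 weeks went down to -0.07684 (0.1 with 1 µM). The pairing is thus only weakly borne out by these values at 6 weeks and is uncertain at 12 weeks.

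The receptors, pathway lists and markers were chosen with earlier results of these data known, and 1 gene of these lists is not reported here. The genes named were the 4 receptors, every listed gene called in a PFOS comparison (otherwise the 2 most abundant of a list), the 10 genes most like each receptor and the nearest genes with values. For the last, 3084 entries with a listed span over 3000000 bases were left out.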

Additional observations from a re-analysis of the deposited data

Results flagged for a closer look

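In 32 groups of 4 libraries (4 receptors in 8 groups), a single library stood apart from the other 3 in 2 groups by Dixon's ratio of gap to range at its 95% critical value, which chance passes in about 1 in 20 groups. F2RL1 in the 6-week control had 0.66 TPM (20 counts) in vial 1 against at most 0.29 TPM in the other vials, with a ratio of 0.86. F2RL2 at 0.1 µM after 6 weeks had 3.26 TPM in vial 4 against at least 4.55 TPM in the others, also with a ratio of 0.86. Vial 4 was the lowest for F2RL2 in 3 of 4 groups at 6 weeks.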

How the results depend on the processing

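Of 525 alternative values of the receptors, 519 kept their side of the threshold or, where no test was given, moved by less than 1 SD. The fall of F2R and F2RL2 with time passed in all 4 groups under every alternative run, and neither gene passed in any PFOS comparison or interaction. F2RL3 at 0.1 µM after 6 weeks (-0.60) passed with the vial as replicate block (adjusted p = 0.0425 by edgeR) and under no other alternative, and the block changed no other call of a receptor. Over the vials left out in turn, the log2 fold change with time ran from -1.95 to -0.81 for F2RL1 in the control and from -1.10 to -0.35 for F2RL3 at 0.1 µM. The difference of the PFOS effect between times ran from -0.87 to 0.48 for F2RL1 at 0.01 µM, from -0.56 to 0.89 for F2RL1 at 0.1 µM and from -1.47 to -0.65 for F2RL3 at 0.1 µM. F2RL1 had no value with at least 10 counts in every library, and without a filter its 12-week log2 fold changes lay between -0.10 and 0.10.

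The pathway counts moved more, and the cause was not tested. At 0.1 µM after 6 weeks, where 3 listed genes were called, there was 1 without a filter, 6 with DESeq2, 7 with the replicate block, 6 with only the 8 libraries compared, 0 with all 32 libraries in one fit, and 0 to 6 with a vial left out. At 1 µM after 6 weeks, where 1 was called, there were 2 without a filter, 3 with DESeq2, 3 with the replicate block, 2 with only the 8 libraries, 0 with all 32 libraries and 0 to 3 with a vial left out. At 0.1 µM after 12 weeks, where 3 were called, there were 6 with DESeq2, 9 with all 32 libraries, 0 without the 12-week control of vial 3 (chosen after seeing the data) and 0 to 4 with a vial left out. At 1 µM after 12 weeks, where 0 were called, there was 1 with only the 8 libraries. For the interaction at 0.1 µM, with 2 called (DUSP1 and CXCL2), there was 1 without a filter and 0 to 2 with a vial left out, and at 1 µM, with 0 called, there were 2 with DESeq2 and 1 with limma.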
